A study of Mus musculus with 6 samples.

Results

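The gene set described here comprised 8 genes of myelin and of the Schwann cell, the glial cell that wraps peripheral axons: Pmp22, Prx, Mbp, Mag, Mog, Mobp, Sox10 and Egr3. Members were taken by symbol from probe sets that the platform annotation gives exactly 1 gene symbol. Of the 8, 7 were measured, each by 1 probe set, among 22180 genes in all, and Prx was not analysed here. The arrays measured total RNA from the complex of retinal pigment epithelium (RPE, the pigmented layer behind the photoreceptors), choroid (the vascular layer) and sclera (the fibrous coat). The 3 5XFAD samples came from untreated mice aged 12 months, heterozygous for the transgenes, which carry familial Alzheimer's disease mutations in human amyloid precursor protein and presenilin 1 under the neuronal Thy1 promoter. The 3 wild-type (WT) samples came from untreated littermates of the same age without the transgene. Whether an array represents 1 animal or a pool is not given in the sources used here, and the spread behind each p-value is that between samples, technical spread included.

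Myelin is the stacked membrane that insulates axons. Schwann cells make it in peripheral nerves, such as the ciliary nerves that run through sclera and choroid, and oligodendrocytes make it in the central nervous system, including the optic nerve behind the eyeball. Sox10 is the transcription factor that both glial types need, and in Schwann cells it works with Egr2, a zinc finger factor related to Egr3, to switch on myelin genes. Choroidal melanocytes, which like Schwann cells descend from the neural crest, also use Sox10. A whole-tissue array cannot tell fewer cells of a type from less RNA per cell.

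Because SOX and EGR factors are the shared regulators of myelin genes, the RefSeq promoter windows of the measured genes (build GRCm38.p6, 250 bases before to 50 after a transcription start) were searched on both strands for a core of each site. The SOX core was ACAAAG, which reads CTTTGT from the opposite strand. The EGR core was GGGGGCG, which reads CGCCCCC from the opposite strand, and no match of one motif overlapped a match of the other. Windows of 4 genes, 9 in all, were used (Mag, Mobp, Mog and Pmp22). No window of Mbp was searched, because member windows on its chromosome were left out. Sox10 and Egr3 had no usable window, so the counts cover only part of the set. The SOX core was in 3 of the 9 and the EGR core in 1, against 18.7% and 16.4% of all 32851 promoter windows. The windows with matches are printed 5′ to 3′ on the gene's strand with the matches in capitals, first Mobp (chr9:120149492-120149791, plus strand), then Mag (chr7:30914873-30915172, minus strand), then Pmp22 (chr11:63132553-63132852, plus strand):
Mobp: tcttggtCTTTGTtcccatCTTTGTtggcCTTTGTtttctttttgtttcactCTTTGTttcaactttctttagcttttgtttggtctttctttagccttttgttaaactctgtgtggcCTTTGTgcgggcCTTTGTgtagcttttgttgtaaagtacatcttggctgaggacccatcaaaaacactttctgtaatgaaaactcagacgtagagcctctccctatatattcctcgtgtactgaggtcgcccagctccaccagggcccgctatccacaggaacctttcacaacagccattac
Mag: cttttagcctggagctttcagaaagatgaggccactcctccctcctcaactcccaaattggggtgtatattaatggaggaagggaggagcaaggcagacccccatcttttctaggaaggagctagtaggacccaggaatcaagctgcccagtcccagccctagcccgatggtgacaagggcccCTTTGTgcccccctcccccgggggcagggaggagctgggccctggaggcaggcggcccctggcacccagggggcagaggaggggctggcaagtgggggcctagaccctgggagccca
Pmp22: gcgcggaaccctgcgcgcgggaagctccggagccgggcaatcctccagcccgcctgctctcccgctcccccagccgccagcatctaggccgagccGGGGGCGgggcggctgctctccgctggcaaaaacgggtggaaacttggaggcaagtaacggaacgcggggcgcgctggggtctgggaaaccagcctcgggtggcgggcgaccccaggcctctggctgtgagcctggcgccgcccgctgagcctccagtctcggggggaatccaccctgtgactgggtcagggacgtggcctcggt

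The Mobp window held 6 SOX cores, all read as CTTTGT on the gene's strand, the first starting at position -243 and the last at -120 from the start site. It was the only 1 of the 32851 windows with 6 or more. The Mag window held a single SOX core at -67. A second, overlapping Mag window contained the same match, and the remaining Mag window held neither motif. The Pmp22 window held 1 EGR core at -155 and no SOX core. The other 3 Pmp22 windows and the Mog window held neither motif. These matches describe letters in the windows, not bound sites.

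No difference between 5XFAD and WT tissue passed the test in any of the 7 measured genes. Past the adjusted threshold there were 0 of 7 (limma, Benjamini-Hochberg adjusted p from 0.82 for Mag to 0.99 for Mbp), where 0.0225% of all genes passed. At an unadjusted p under 0.05 there were also 0 of 7, against 6.28% of all genes. Differences were positive for 3 genes and negative for 4, with a median of -0.03 on the log2 scale against -0.01 over all genes. The median absolute difference was 0.05 for the 7 genes and 0.09 for all genes. The 95% intervals of all 7 differences included 0 and lay between -0.49 and 0.56, both ends set by Mog.

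Pmp22 encodes a tetraspan protein of compact peripheral myelin that is also made by fibroblasts and epithelia. Its log2 intensity was 10.03, 10.05 and 9.85 in the 5XFAD arrays (replicates 1 to 3, as for all values per array), against 9.75, 9.92 and 9.93 in the WT arrays. The 5XFAD values included the highest pair of the 6, but the groups overlapped, since 5XFAD replicate 3 lay below WT replicates 2 and 3. Means were 9.98 ± 0.11 and 9.87 ± 0.10 (SD, n = 3 each, as for all means given here). The difference was 0.11 ± 0.11 (log2, 5XFAD minus WT, ± SE, 95% interval -0.13 to 0.35), which did not pass (limma, Benjamini-Hochberg adjusted p = 0.93). In folds that interval ran from 0.914 to 1.28.

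Mbp encodes myelin basic protein, which compacts the membrane in both central and peripheral myelin. It measured 6.80, 6.96 and 6.93 in 5XFAD arrays and 6.94, 6.88 and 6.83 in WT arrays. The 6 values spanned 0.17, a range that exceeded that of 4.43% of all genes, and the groups overlapped fully. Means were 6.90 ± 0.09 in 5XFAD and 6.88 ± 0.05 in WT. The difference of 0.01 ± 0.10 had a 95% interval of -0.21 to 0.23, or 0.864-fold to 1.18-fold.

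Mag, the adhesion protein of the myelin layer next to the axon in both kinds of nerve, had the largest difference of the 7. It measured 4.61, 4.86 and 4.79 in 5XFAD arrays, against 5.09, 4.93 and 4.92 in WT arrays. All 3 5XFAD arrays lay below all 3 WT arrays, and it was the only 1 of the 7 genes without overlap, where 6.62% of all genes were lower in this way and 11.3% were apart in either direction. Of the 7 genes 0 were apart and higher, against 4.72% of all genes. Means were 4.75 ± 0.13 and 4.98 ± 0.10, a difference of -0.23 ± 0.11 (95% interval -0.47 to 0.02) that did not pass (limma, Benjamini-Hochberg adjusted p = 0.82). The exact two-sided permutation p was 0.1, the smallest that 3 against 3 arrays allow.

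Mog and Mobp mark central myelin, the first as a surface protein of its outermost layer and the second as a small basic protein of the compact membrane. Mog measured 5.56, 5.85 and 5.89 in 5XFAD arrays and 5.67, 5.24 and 6.30 in WT arrays. The WT arrays held both the lowest and the highest of the 6 values, and the range of 1.06 exceeded that of 97.6% of all genes. Means were 5.77 ± 0.18 in 5XFAD and 5.73 ± 0.53 in WT, a difference of 0.03 ± 0.23 (95% interval -0.49 to 0.56). Without WT replicate 2, the lowest array, the difference was -0.22 and still did not pass (limma, Benjamini-Hochberg adjusted p = 0.82).

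Mobp measured 5.14, 5.02 and 5.25 in 5XFAD arrays and 5.15, 5.15 and 5.24 in WT arrays. The groups overlapped, and the range of 0.23 exceeded that of only 13.0% of all genes. Means were 5.14 ± 0.11 in 5XFAD and 5.18 ± 0.05 in WT, with a difference of -0.05 ± 0.10 (95% interval -0.28 to 0.18).

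Sox10 measured 7.57, 7.74 and 7.99 in 5XFAD arrays and 7.98, 7.97 and 7.75 in WT arrays. The lowest pair of values was in 5XFAD, but 5XFAD replicate 3 was the highest array of all. Means were 7.76 ± 0.21 and 7.90 ± 0.13, a difference of -0.14 ± 0.13 (95% interval -0.43 to 0.16). With the skeletal muscle list mean of each array as a covariate the difference was 0.02, so that its direction was not fixed.

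Egr3, an inducible zinc finger factor that mice need to form muscle spindles, measured 5.63, 5.41 and 5.29 in 5XFAD arrays and 5.53, 5.67 and 5.24 in WT arrays. The groups overlapped, and replicate 3 was the lowest of each group. Means were 5.45 ± 0.17 and 5.48 ± 0.22, a difference of -0.03 ± 0.14 (95% interval -0.35 to 0.28).

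**Figure D1:**
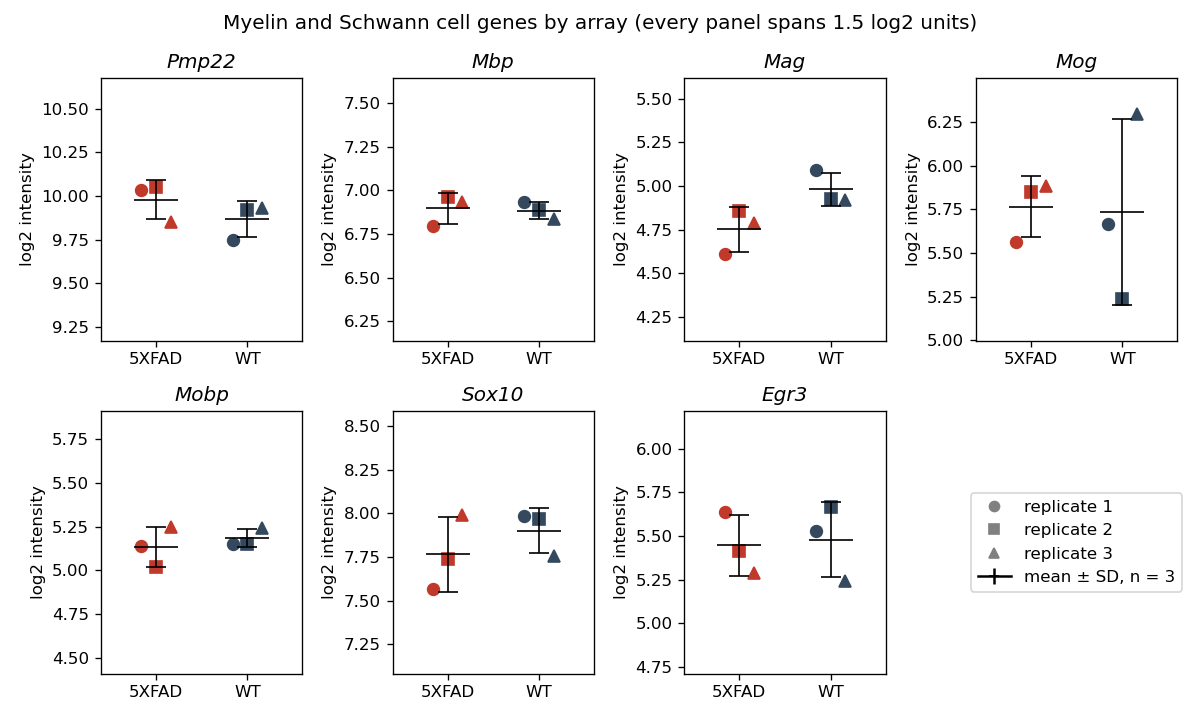
Log2 intensity of the 7 measured genes in the 3 5XFAD arrays (left in each panel) and the 3 WT arrays (right), with the mean and SD in black and every panel spanning the same height. Mag is the gene whose groups do not overlap, and Mog shows the widest spread, from 5.24 to 6.30, both in WT arrays.

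Part of the set was dim. Among all 22180 genes the mean over 6 arrays stood at percentile 98.2 for Pmp22, 82.7 for Sox10, 65.9 for Mbp, 44.5 for Mog, 38.9 for Egr3, 33.2 for Mobp and 28.2 for Mag. Of 12 RPE markers 11 were above percentile 90, among them the isomerase gene Rpe65 at 99.9, while the chloride channel gene Best1 stood at 33.7. The Schwann cell gene S100b stood at 98.0, but few listed Schwann cell genes were as bright. Above percentile 90 were 0 of 9 measured genes of peripheral myelin. Of 11 measured genes of non-myelinating Schwann cells and neural crest glia, 2 were above it, S100b included. Probe sets of 1088 olfactory receptor genes, which have no known role in this tissue, gave a comparison for dim signal, although probe sets differ in brightness for the same amount of RNA. Of these receptor genes 13.0% had a higher mean than Mag, 9.28% than Mobp, 5.88% than Egr3 and 3.58% than Mog. The share above Mbp was 0.184%, and for Pmp22 and Sox10 it was 0%. Background compresses the differences of dim probe sets, so the narrow intervals of Mag and Mobp bound the measured signal, not the transcript level.

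Within each array the log2 intensity of Pmp22 was set against that of the central myelin genes Mobp and Mog. It was also set against Mag, which is in both kinds of myelin. Only the change of such a ratio between groups carries meaning. Pmp22 stood at percentile 98.2, while 0 of 9 listed peripheral myelin genes were above percentile 90, and fibroblasts and epithelia also make it. Which cells gave its signal was not tested, so the ratios need not compare peripheral with central myelin. With 3 against 3 arrays the smallest exact two-sided permutation p is 0.1, so that no ratio could pass 0.05 and these values are descriptions. Pmp22 over Mobp was 4.84 ± 0.22 in 5XFAD and 4.68 ± 0.09 in WT (log2 ratio), a difference of 0.16 (exact two-sided permutation p = 0.3, adjusted over the 3 ratios 0.45). Pmp22 over Mog was 4.21 ± 0.25 in 5XFAD and 4.13 ± 0.53 in WT, a difference of 0.08 (exact two-sided permutation p = 0.9, adjusted 0.9). Pmp22 over Mag was 5.43, 5.19 and 5.06 in 5XFAD arrays, all above the 4.66, 4.99 and 5.01 of WT arrays. The groups did not overlap, and the difference of 0.34 had the smallest possible exact permutation p of 0.1 (adjusted 0.3).

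Other genes of peripheral myelin gave no call either. Of 10 listed genes 9 were measured, and 0 passed over all genes (limma). At an unadjusted p under 0.05, 1 was higher, where 2.89% of all genes were, and 0 were lower, where 3.39% of all genes were. The list's median difference was -0.08, with 2 genes positive and 7 negative. The gene past the unadjusted level was Cldn19, a tight junction claudin of Schwann cells that the RPE also makes, at 7.24, 7.61 and 7.27 in 5XFAD arrays against 6.45, 7.06 and 6.64 in WT arrays. All 5XFAD arrays lay above all WT arrays, with a difference of 0.66 ± 0.17 that did not pass (limma, Benjamini-Hochberg adjusted p = 0.45). Egr2, the master factor of peripheral myelination, was 6.16 ± 0.07 in 5XFAD and 6.28 ± 0.11 in WT, a difference of -0.12 ± 0.10. The remaining 7 genes had differences from -0.23 for Dhh, the hedgehog ligand of Schwann cells, to 0.02 for Ncmap, a protein of non-compact myelin. Among them Pou3f1 was apart and lower, at 4.99, 4.95 and 5.08 in 5XFAD arrays against 5.18, 5.20 and 5.29 in WT arrays. Its difference was -0.22 ± 0.10 (limma, Benjamini-Hochberg adjusted p = 0.80). Over all genes 4.72% were apart and higher and 6.62% apart and lower.

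Genes of central myelin and oligodendrocytes had mostly negative differences, none of which passed. Of 12 listed genes 11 were measured, 10 with a negative difference, where 52.8% of all genes had one, and the list median was -0.20. In 3 of the 11 the 5XFAD and WT arrays lay apart, lower in 5XFAD for Omg and Tmem88b and higher for Hapln2, against 11.3% of all genes in either direction. After adjustment over all genes 0 of the 11 passed (limma). At an unadjusted p under 0.05, 2 were lower, against 3.39% of all genes. Omg, a myelin glycoprotein that neurons also make, was 5.99, 5.73 and 5.93 in 5XFAD arrays against 6.27, 6.59 and 6.22 in WT arrays. Its groups were apart, at a difference of -0.48 ± 0.13 (limma, Benjamini-Hochberg adjusted p = 0.51). Myrf, the transcription factor that oligodendrocytes need to make myelin and that the RPE also expresses, was 8.55, 8.43 and 9.01 in 5XFAD arrays against 9.07, 9.32 and 8.95 in WT arrays. Its groups overlapped through 5XFAD replicate 3 and WT replicate 3, and the difference was -0.45 ± 0.17 (limma, Benjamini-Hochberg adjusted p = 0.70).

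The mean of the central list was 6.37, 6.33 and 6.50 in 5XFAD arrays against 6.58, 6.63 and 6.65 in WT arrays, with the groups apart. The mean of the RPE list was also apart, at 10.35, 10.30 and 10.49 in 5XFAD arrays against 10.68, 10.80 and 10.76 in WT arrays. Of its 12 genes 11 had a negative difference and 0 passed the adjusted threshold (limma). At an unadjusted p under 0.05, 9 were lower, against 3.39% of all genes. The RPE list's part in the central list's difference was not tested. The lineage factors Olig1 and Olig2 differed by -0.20 ± 0.13 and -0.17 ± 0.12, and the oligodendrocyte gene Opalin by -0.01 ± 0.10. Ermn, a cytoskeletal protein of oligodendrocytes, was the brightest of the list at percentile 99.0 of all genes and differed by -0.36 ± 0.18. It was 1 of 2 genes of the 11 above percentile 90, while Olig1, Olig2 and Opalin stood at 34.7, 32.5 and 15.9. Which cells gave the Ermn signal was not tested. Hapln2, a link protein of the matrix at nodes of Ranvier, was the single positive gene at 0.08 ± 0.09, and Tmem88b differed by -0.19 ± 0.10.

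Genes used by myelin of both nervous systems were split. Of 12 listed genes 11 were measured, 5 positive and 6 negative, with a median of -0.01. In limma 0 passed over all genes and 2 were lower at an unadjusted p under 0.05, against 3.39% of all genes. Ugt8a, the enzyme that makes the myelin lipid galactosylceramide, was 6.57, 6.26 and 6.22 in 5XFAD arrays against 6.76, 6.60 and 6.63 in WT arrays. Plekhb1, a membrane protein of myelinating glia and photoreceptors, was 9.14, 9.14 and 9.20 in 5XFAD arrays against 9.33, 9.57 and 9.44 in WT arrays. Both genes had groups that did not overlap, where 6.62% of all genes were apart and lower. Their differences of -0.32 ± 0.12 and -0.28 ± 0.10 did not pass (limma, Benjamini-Hochberg adjusted p = 0.73 and 0.70). Cnp, a phosphodiesterase of non-compact myelin, was 6.05 ± 0.07 in 5XFAD and 6.05 ± 0.11 in WT, and Mal, a proteolipid of myelin membranes and epithelia, differed by 0.09 ± 0.12.

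Among 11 measured genes of non-myelinating Schwann cells and neural crest glia, 7 differences were positive and 4 negative, with a median of 0.00. In limma 0 passed. At an unadjusted p under 0.05 there was 1 gene in each direction, against 2.89% of all genes higher and 3.39% lower. Ncam1, an adhesion molecule of these cells and of muscle and neurons, was 9.89, 9.70 and 9.72 in 5XFAD arrays against 9.44, 9.59 and 9.32 in WT arrays, a difference of 0.32 ± 0.11 (Benjamini-Hochberg adjusted p = 0.69). The skeletal muscle list mean was 6.81 ± 0.60 in 5XFAD and 6.22 ± 0.65 in WT in the same arrays, and its part in the Ncam1 difference was not tested. Erbb3, a neuregulin receptor that Schwann cells depend on, was 7.70, 7.51 and 7.42 in 5XFAD arrays against 7.79, 7.95 and 7.79 in WT arrays, a difference of -0.30 ± 0.11 (Benjamini-Hochberg adjusted p = 0.71). The Schwann cell calcium-binding gene S100b was 9.83 ± 0.015 in 5XFAD and 9.83 ± 0.11 in WT. Gfap, an intermediate filament of astrocytes, reactive Muller glia and non-myelinating Schwann cells, reached 7.68 in 5XFAD replicate 1, while the other 5 arrays lay between 5.54 and 6.51.

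**Figure D2:**
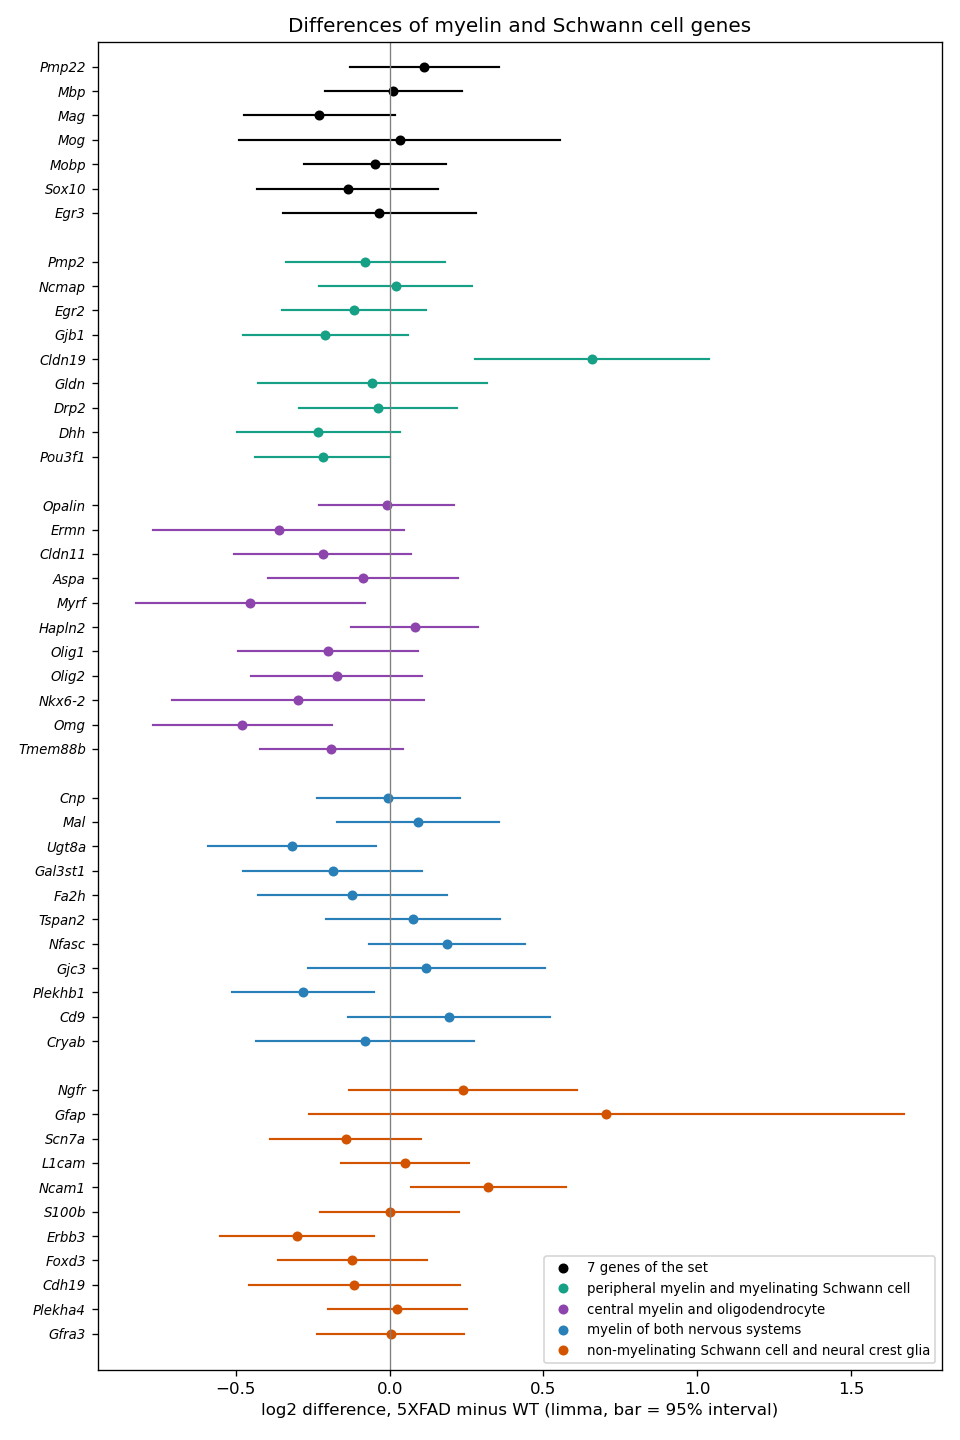
Log2 differences, 5XFAD minus WT, with 95% intervals from limma for the 7 genes of the set and 4 lists of related glial genes. Every interval of the 7 genes crosses 0, and 10 of the 11 central myelin genes lie left of 0.

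Transcription factors related to Egr3 gave no call. Of the 5 measured EGR and NAB genes, 4 were negative and 0 passed in limma, also at an unadjusted p under 0.05. Egr1 was 7.29 ± 0.17 in 5XFAD and 7.50 ± 0.23 in WT, a difference of -0.21 ± 0.14, and Nab1, a corepressor of EGR proteins, differed by -0.13 ± 0.10. In the immediate early list, 0 of 10 genes passed in limma. Against 3.39% of all genes, 1 of the list was lower at an unadjusted p under 0.05. That gene was Nr4a1, an inducible nuclear receptor, at 7.36, 7.18 and 7.35 in 5XFAD arrays against 8.24, 7.79 and 7.55 in WT arrays (difference -0.56 ± 0.17, Benjamini-Hochberg adjusted p = 0.56).

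Axonal and neuronal genes, which would accompany nerve fibres or retina, had a median difference of 0.07 over 12 genes. In limma 0 passed and 0 were at an unadjusted p under 0.05. Those of smallest p were the neurofilament gene Nefl at 0.30 ± 0.14 and Rbfox3, a splicing factor of neuronal nuclei, at -0.25 ± 0.12. The melanocyte list, named for a cell type that also uses Sox10, had 0 of 9 genes past either level and a median of 0.06. Its mean was 10.15 ± 0.11 in 5XFAD and 10.07 ± 0.10 in WT. Of the 9 genes 7 were above percentile 90. The tissue also held the pigmented RPE, and which cells gave the signal of this list was not tested. Its genes of smallest p were the melanosome genes Mlana at 0.25 ± 0.11 and Pmel at 0.24 ± 0.12.

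In the list of nerve sheath genes (perineurium and endoneurium), 8 were measured and 0 passed in limma. At an unadjusted p under 0.05, 1 was higher and 2 were lower, against 2.89% and 3.39% of all genes. Those of the list were Lypd2 at 0.37 ± 0.14, the claudin gene Cldn1 at -0.65 ± 0.14 and the transcription factor gene Sox9 at -0.41 ± 0.14. Cldn1 and Sox9 stood at percentiles 98.8 and 91.1. The RPE list mean was lower in 5XFAD too, and its part in these differences was not tested. In the list of astrocytes and Muller glia, the radial glia of the retina, 0 of 8 passed in limma. At an unadjusted p under 0.05, 3 were higher and 1 was lower, against 2.89% and 3.39% of all genes. The higher ones were the glutamate transporter gene Slc1a3 at 0.99 ± 0.26, the gap junction gene Gja1 at 0.75 ± 0.29 and the water channel gene Aqp4 at 0.51 ± 0.20. The lower one was Rlbp1, a retinaldehyde carrier also made by the RPE, at -0.54 ± 0.16.

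The mean signal of the nerve lists differed between arrays by less than that of the muscle and photoreceptor lists. Over the 6 arrays the mean of the peripheral myelin list spanned 0.15, from 5.59 to 5.74, and that of the shared myelin list also 0.15, from 7.35 to 7.51. The central list spanned 0.32, the axon list 0.33 and the list of non-myelinating Schwann cells and neural crest glia 0.34. Differences in the peripheral list ran both ways, 2 positive and 7 negative, and Cldn19 alone spanned 1.16. A narrow span of a list mean therefore does not show that nerve content was even. The photoreceptor list spanned 0.92 and the skeletal muscle list 1.68, with 5XFAD replicate 1 the highest in muscle at 7.45 and WT replicate 1 the lowest at 5.77. The list of surface epithelium genes had the widest span of the lists, 1.91, with a mean of 6.37 ± 0.35 in 5XFAD and 4.88 ± 0.09 in WT. Of its 9 genes 4 passed in limma, all higher, where 0.0225% of all genes passed. The surface epithelium list's part in any difference of the glial genes was not tested. Over all probe sets, arrays correlated between 0.981 and 0.990, and WT replicate 2 stood lowest, at a mean correlation of 0.984 with the rest.

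**Figure D3:**
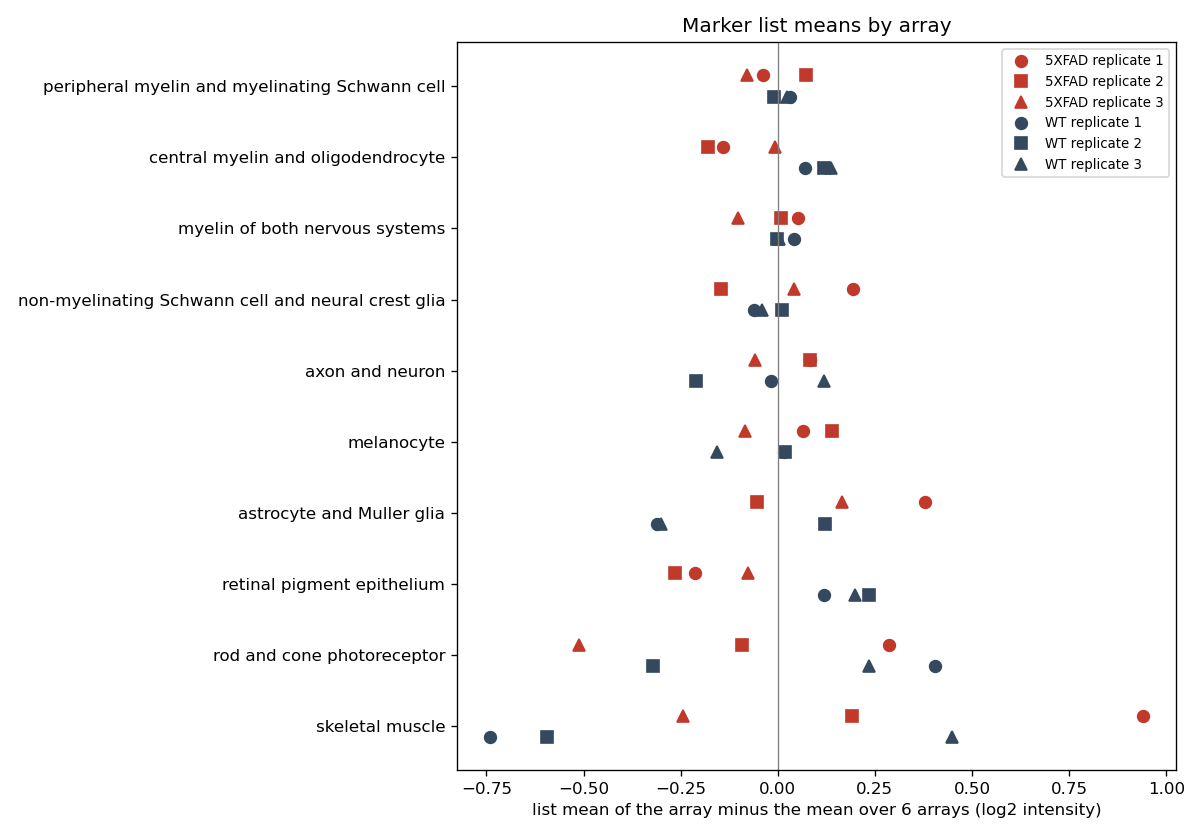
Mean log2 intensity of each marker list in each of the 6 arrays, minus its mean over the arrays, with 5XFAD above WT in each row. The peripheral and shared myelin lists stay within a span of 0.15, whereas the skeletal muscle list spans 1.68.

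The 7 genes did not rise and fall together across arrays. Among 21 pairs Pearson's r was positive in 9 and negative in 12, with a median of -0.08 and a highest value of 0.68 for Mag and Sox10. One pair passed after adjustment over the 21: Mog and Egr3 ran in opposite directions, with r = -0.93 over 6 arrays (exact permutation p = 0.0014, adjusted p = 0.029). Spearman's rho was -1 (exact permutation p = 0.0028, adjusted p = 0.058), and without the 2 arrays farthest from the median of Mog r was -0.97. The order was opposite in each group, with WT replicate 3 highest in Mog and lowest in Egr3 and WT replicate 2 the reverse. Both probe sets were dim, and within a group 3 arrays are too few for a coefficient.

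Pmp22 and Sox10 also opposed each other, at r = -0.81 (exact permutation p = 0.05, adjusted p = 0.53) and rho = -0.89 (exact permutation p = 0.033, adjusted p = 0.35), which did not pass. Without the 2 arrays farthest from the median of Pmp22 r was -0.92. The central pair Mog and Mobp had r = 0.35 and rho = 0.54 (exact permutation p = 0.50 and 0.30, adjusted p = 0.97 and 0.89), and r was 0.06 without the 2 arrays farthest from the median of Mog. Mbp and Pmp22, both of peripheral myelin, had r = -0.34 and rho = -0.14 (exact permutation p = 0.50 and 0.80, adjusted p = 0.97 and 0.89), and r was 0.26 without the 2 arrays farthest from the median of Mbp.

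**Figure D4:**
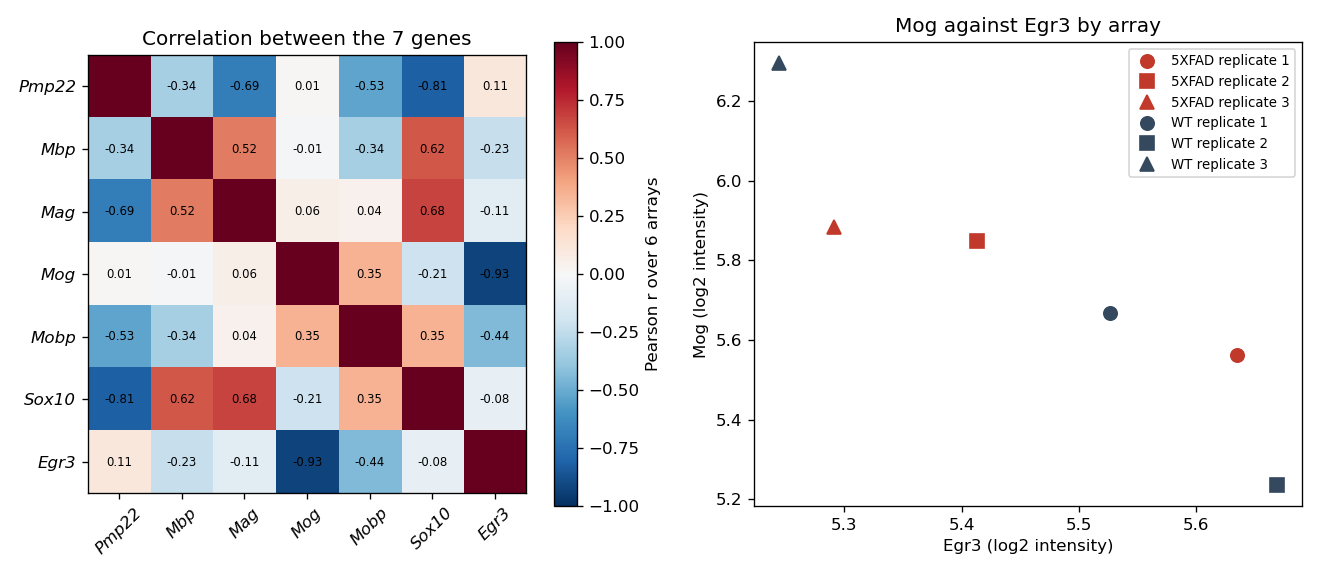
Left, Pearson correlations over 6 arrays between the 7 genes. Right, log2 intensity of Mog against Egr3 in each array, with the 6 points falling in strictly opposite order and WT replicates 2 and 3 at the ends.

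The genes whose pattern over the 6 arrays was most like that of Pmp22, among 465 with a range of at least 1, were Defb2 (r = 0.91), Myl1 (0.90), Ckmt2 (0.89), Igh-VS107 (0.87) and Kcnj3 (0.85). Spearman's rho for these ran from 0.71 for Kcnj3 to 0.94 for Myl1. Defb2 encodes a defensin, Myl1 a muscle myosin light chain, Ckmt2 a creatine kinase of muscle mitochondria, Igh-VS107 an immunoglobulin heavy chain segment and Kcnj3 a potassium channel. Myl1 measured 8.40, 7.81 and 6.77 in 5XFAD arrays and 6.46, 6.84 and 7.53 in WT arrays, so that 5XFAD replicate 3 and WT replicate 1 were the lowest of their groups in it, as they were in Pmp22. For Mobp they were Dcpp2 (r = 0.91), Gpx6 (0.84), H4c14 (0.83), Ppp3r2 (0.81) and Rps15 (0.79), with rho from 0.37 for Ppp3r2 to 0.89 for Rps15. Mobp itself varied by 0.23 over the arrays and Pmp22 by 0.30, and the genes were picked as the highest of 465, so these coefficients are descriptions.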

How the data were processed

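The deposited values are log2 intensities per probe set, for which the submitters' processing notes name RMA and Affymetrix Expression Console 1.1. RMA subtracts background, brings arrays to one distribution and combines the probes of each set. No genome build or filter is given in the sources used here, and no detection calls were used. Of 33793 probe sets, 23521 had 1 gene symbol in the platform annotation, 1814 had several and 8458 had none. The brightest probe set was kept for each of 1082 genes with more than 1, which left 22180 genes. The 5XFAD and WT arrays were compared in limma 3.58.1 (R 4.3.3) by a two-sided moderated test without covariates, with 4 residual degrees of freedom and 5.23 from the prior. P-values were adjusted over all 22180 genes by the Benjamini-Hochberg method, with a call at 0.05. The fit was tested on simulated data.

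The 8 genes and the marker lists were chosen with earlier results of these data known. Named genes were those of the set, a few fixed nerve genes (Cnp, Egr1, Egr2), members of each nerve-related list at an unadjusted p under 0.05 or else the 2 of smallest p, and the 5 genes most correlated with Mobp. Genes like Pmp22 were sought in place of those like Prx, a choice made after the values were seen. Also chosen after values were seen are the correlated pairs and the 3 ratios to Pmp22. The same holds for Dhh, Ncmap, Pou3f1, Opalin, Olig1, Olig2, Ermn, Hapln2, Mal, S100b, Gfap, Tmem88b, Best1 and Rpe65. The olfactory receptor comparison was added at the same stage. Alternatives were the replicate block, dimness filters, other scaling, prior, weights and probe set rules, muscle or photoreceptor list means as a covariate, and each array left out in turn.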

Additional observations from a re-analysis of the deposited data

How the results depend on the processing

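The count of 0 called genes among the 7 held under all 17 alternatives with limma, although Mag was not tested without the dimmest 30% of genes, and Mag, Mobp, Egr3 and Mog were not without the dimmest 50%. Deviations of same-numbered arrays correlated at -0.06, -0.05 and 0.13. Other pairs were not computed for comparison, so whether the replicate numbers mark a pairing was not tested. With the replicate block 0 of the 7 and 6 of all genes were called. The count over all genes was 5, and 8 without the dimmest 30% of genes, 9 with arrays centred on their medians, 9 under the trended, robust prior and 8 under array weights. With 1 array left out it ran from 3 (without WT replicate 3) to 19 (without WT replicate 2), and the cause was not tested.

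Mag stayed negative (-0.28 to -0.15) and Pmp22 positive (0.04 to 0.18) under every alternative that tested them, always without a call. For both, the value nearest 0 was that with the muscle list as a covariate, -0.15 for Mag and 0.04 for Pmp22. The sign of 5 uncalled differences turned under some. Mbp was -0.0064 after another quantile normalization, -0.0098 with array weights and -0.0032 with the photoreceptor list as a covariate. With 1 array left out Mbp ran from -0.021 to 0.063, with -0.0052 without 5XFAD replicate 3 and -0.013 without WT replicate 3. Mog was -0.12 and Sox10 0.020 with the muscle list as a covariate. With 1 array left out Mog ran from -0.22 to 0.31, with -0.0086 and -0.027 without 5XFAD replicates 2 and 3. Egr3 ran from -0.15 to 0.061 in the same way, with 0.044 without 5XFAD replicate 3 and 0.061 without WT replicate 2. Mobp ran from -0.10 to 0.010, its one positive value without 5XFAD replicate 2. Low signal over background limits Mag, Mobp, Egr3 and Mog, and 3 arrays per group limit all 7 genes.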
